A study of Mus musculus with 7 samples.

Results

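The genes described here make, spend or reduce nicotinamide adenine dinucleotide (NAD), the electron carrier of fuel oxidation. They were chosen by symbol, with earlier results of these data known: Nmrk1, Nmrk2, Nampt, Nmnat1, Nmnat3, Sirt1, Sirt3, Sirt5, Nnt and Cd38. All 10 were found, each on 1 row, among the 23847 gene rows of the deposited table. RNA came from ventricular lysates of male Mus musculus in 2 groups. The 3 TAB libraries are from mice that underwent trans-aortic banding, an operation that constricts the aorta with a tied suture so that the ventricle pumps against a higher pressure, and the 4 Sham libraries are from mice whose aorta was exposed without tying the suture. The operation was done at 8 weeks of age per the labels' protocols, and the age label of every sample is 12 weeks. The labels name no strain, genotype or drug, and do not say which ventricle was taken or whether every library came from its own animal, and p-values therefore reflect the variation among these libraries, which may be technical.

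NAD is spent as a substrate as well as cycled as a carrier, so cells rebuild it. In the salvage route Nampt turns nicotinamide into nicotinamide mononucleotide, the nicotinamide riboside kinases Nmrk1 and Nmrk2 make the same mononucleotide from the riboside, and the Nmnat enzymes convert it to NAD. Sirtuins use NAD to remove acyl groups from proteins, Cd38 is a glycohydrolase that cleaves it, and Nnt uses the proton gradient of the inner mitochondrial membrane to pass electrons from NADH to NADP. In the mouse, Nampt is known as the main source of the mononucleotide in heart, and Nmrk2 as the kinase of striated muscle that is raised in damaged or failing heart.

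The promoters of Nmrk2 and Nampt are shown because these genes changed in opposite directions, and that of Sirt1 because it holds the E-box letters. Each sequence is 250 bases before to 50 after the transcription start in RefSeq, build GRCm38.p6, written 5′ to 3′ on the strand of the gene, with matched letters in capitals. The Nmrk2 window is chr10:81201988-81202287 on the minus strand, that of Nampt chr12:32820085-32820384 on the plus strand, and that of Sirt1 chr10:63338986-63339285 on the minus strand.
Nmrk2: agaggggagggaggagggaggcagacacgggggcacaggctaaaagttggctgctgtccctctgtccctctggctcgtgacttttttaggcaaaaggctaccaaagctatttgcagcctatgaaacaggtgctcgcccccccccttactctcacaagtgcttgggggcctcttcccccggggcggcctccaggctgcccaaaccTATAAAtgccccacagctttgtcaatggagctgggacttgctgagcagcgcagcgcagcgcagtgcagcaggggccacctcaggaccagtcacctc
Nampt: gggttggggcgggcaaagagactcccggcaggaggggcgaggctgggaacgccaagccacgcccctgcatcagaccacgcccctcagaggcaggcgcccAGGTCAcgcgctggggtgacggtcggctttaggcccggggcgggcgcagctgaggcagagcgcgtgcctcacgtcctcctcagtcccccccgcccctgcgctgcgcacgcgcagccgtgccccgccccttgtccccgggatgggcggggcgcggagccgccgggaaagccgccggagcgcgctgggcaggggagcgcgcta
Sirt1: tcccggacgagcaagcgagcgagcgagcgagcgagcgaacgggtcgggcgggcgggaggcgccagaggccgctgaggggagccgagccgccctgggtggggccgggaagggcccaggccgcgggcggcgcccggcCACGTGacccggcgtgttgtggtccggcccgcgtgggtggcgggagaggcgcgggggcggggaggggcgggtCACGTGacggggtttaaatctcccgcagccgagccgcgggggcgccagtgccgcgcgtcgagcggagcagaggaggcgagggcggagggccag
Both strands were searched for a TATA box, an E-box (the site of clock factors), a nuclear receptor half-site and, by name, the CArG box of serum response factor, and no match in the printed windows overlapped another. The TATA box letters TATAAA began 46 bases before the start of Nmrk2 and are in 13.6% of the 32851 RefSeq promoter windows. The half-site letters AGGTCA began 151 bases before the start of Nampt and are in 16.3% of windows. The E-box letters CACGTG were found in the Sirt1 window alone among the 9 genes with a window (all but Nnt), 115 and 43 bases before the start, and are in 7.15% of all windows. The half-site was also in the windows of Nmnat3 and Sirt5, and the CArG box, in 1.63% of all windows, was in none of the 11 windows held for 9 of the genes. G and C made up 60.7% of the bases in the Nmrk2 window, 76.3% in that of Nampt and 79.0% in that of Sirt1, with a median of 52.7% over all windows.

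Values are FPKM, fragments scaled to transcript length and to library size, which allow levels of different genes to be compared per length. Depth read from the whole-fragment steps of low values was 10.8 to 12.3 M (mega) fragments per library, so that Nmrk1, the lowest of the 10, rested on roughly 38.0 to 61.6 fragments per library on its longest annotated transcript and Nmrk2 on 67.8 to 232.2. Myl2, the ventricular myosin light chain, was at 22000 FPKM or more in every library, and the summed atrial markers Sln, Myl7 and Myl4 ranged from 38.7 to 281.6 FPKM in Sham and from 31.9 to 301.8 in TAB, with Sham 2 and TAB 3 highest. Log2 fold changes are of FPKM + 1, TAB minus Sham, from limma fitted across the 11601 rows that reached 1 FPKM in 3 or more libraries, and a gene is called at a Benjamini-Hochberg adjusted p under 0.05. All 10 genes passed that filter.

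Banding was accompanied by a rise of Nmrk2 and Cd38 and a fall of Nampt and Nnt, while the Nmnat genes and the sirtuins were not called. Of the 10 genes 4 were called, or 40.0%, where 20.3% of all tested rows were (2360 of 11601). The 2 calls in each direction stand beside 13.3% of rows called higher and 7.05% called lower. The median log2 fold change of the 10 genes was -0.03, and that of all tested rows 0.05. For 6 of the 10 genes the ranges of the groups were apart, 2 higher and 4 lower in TAB, where 31.1% of all rows did not overlap (19.9% higher and 11.2% lower). Of the 2360 calls 1542 were higher and 818 lower, a split that became 1038 and 1250 under median-of-ratios rescaling and 1045 and 1225 under quantile normalization. Under each of these scalings 1 of the 10 genes was called higher and 4 lower, with Nmnat3 and Sirt1 called and Cd38 not. Sham 2 and TAB 3 held the most atrial RNA. Without that pair 2 of the 10 genes were called (Nampt and Nnt), where 1353 of 11416 tested rows were. With all libraries and an atrial covariate 4 of the 10 genes were called, where 2201 of 11601 rows were.

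Markers of several cell types moved beside these genes, where 13.3% of all tested rows were called higher and 7.05% lower. Of 10 cardiomyocyte markers 5 were lower in TAB and 2 higher, with a summed level of 54702.2 to 59114.7 FPKM in Sham and 52428.3 to 58708.1 FPKM in TAB. Ryr2, the calcium release channel, fell by 0.36 on the log2 scale and Myh6, the fast myosin heavy chain, by 0.26. Pln fell by 0.25, Tnni3 by 0.24 and Tnnt2 by 0.16. The falls of Nnt (0.31) and of the called NADH shuttle genes (0.14 to 0.31) described below were of like size. Larger were those of Nampt and Aox1 (0.45 each), Art4 (0.41), Afmid (0.40), Nadk2 (0.68) and Aldh1l2 (0.86). Mybpc3 rose by 0.35 and Actn2 by 0.25, and under quantile normalization 3 of the 10 were lower and 3 higher. Of 8 fibroblast markers 6 were higher and 0 lower, with a sum of 410.3 to 469.4 FPKM in Sham and 522.3 to 687.8 FPKM in TAB, and of 7 smooth muscle and pericyte markers 3 were higher and 0 lower, with 218.2 to 233.8 FPKM and 238.8 to 273.2 FPKM. No marker of these lists was at 0 in every library. The part of such shifts in the changes of the NAD genes was not tested, and in bulk tissue fewer cells of a type and less RNA per cell cannot be told apart.

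**Figure D1:**
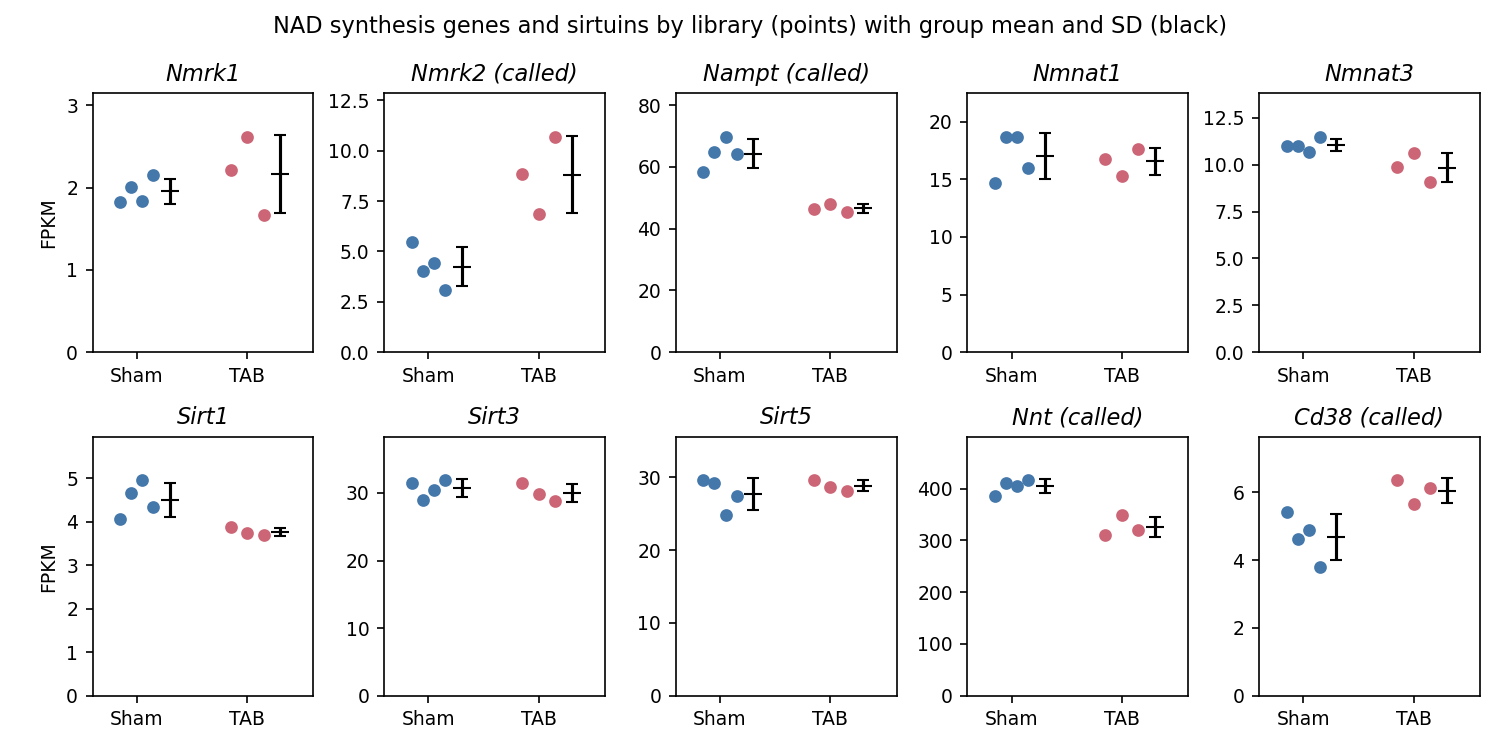
FPKM of each gene (vertical axis, from 0) in the 4 Sham (blue) and 3 TAB (red) libraries, in replicate order from left to right, with group mean and SD in black. The TAB points of Nmrk2 and Cd38 lie above all Sham points, and those of Nampt, Nnt, Nmnat3 and Sirt1 lie below them.

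Nampt, the enzyme that limits the rate of salvage from nicotinamide, fell in the banded ventricles. The gene lies on chromosome 12 (mm10, 32820335 to 32853369, plus strand, from the deposited table). It was at 58.3, 64.8, 69.8 and 64.2 FPKM in Sham 1 to 4 and at 46.2, 48.1 and 45.4 FPKM in TAB 1 to 3. Every TAB library was below every Sham library, and the TAB libraries lay within 3 FPKM of each other. The mean level went from 64.3 ± 4.69 (SD, n = 4) to 46.6 ± 1.38 (SD, n = 3) FPKM, a ratio of 0.724 (log2 fold change -0.45 ± 0.06 SE, limma adjusted p = 0.000659). That call held under all 18 alternatives, with log2 fold changes from -0.51 to -0.41.

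Nmrk2 showed the largest rise of the 10 genes. It encodes the nicotinamide riboside kinase of muscle and lies on chromosome 10 (81198170 to 81202037, minus strand). The level was 5.46, 4.02, 4.41 and 3.10 FPKM in Sham 1 to 4 and 8.85, 6.88 and 10.7 FPKM in TAB 1 to 3. All TAB libraries were above all Sham libraries, with TAB 3 highest, TAB 2 lowest among the TAB libraries and Sham 4 lowest of all. The mean went from 4.25 ± 0.976 (SD, n = 4) to 8.81 ± 1.91 (SD, n = 3) FPKM, or 2.07-fold (log2 fold change 0.90 ± 0.17 SE, limma adjusted p = 0.0076). When Sham 2 and TAB 3 were left out together its log2 fold change was 0.75 and the call was lost (0.0594 after adjustment), while with an atrial covariate it was 0.91 (adjusted p = 0.00544). GENCODE M21 places exons of the antisense gene Atcayos over Nmrk2, and the sources used here do not say whether strand was used in counting, so reads of the pair cannot be told apart.

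Nmrk1, the widely expressed kinase of the same reaction, had the lowest level of the 10 genes. On chromosome 19 (18632016 to 18652184, plus strand), it was at 1.83, 2.01, 1.84 and 2.15 FPKM in Sham 1 to 4 and at 2.21, 2.62 and 1.67 FPKM in TAB 1 to 3. The groups overlapped, with TAB 3 lowest and TAB 2 highest of all libraries. Its log2 fold change was 0.09 (95% confidence interval -0.14 to 0.33, limma adjusted p = 0.596). Of the summed FPKM of both kinases Nmrk2 made up 74.9%, 66.6%, 70.6% and 59.1% in Sham 1 to 4, against 80.0%, 72.4% and 86.5% in TAB 1 to 3. That share overlapped between groups, since TAB 2 lay below Sham 1, with means of 67.8% ± 6.74 (SD, n = 4) and 79.6% ± 7.05 (SD, n = 3).

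Set against Nampt, the level of Nmrk2 was higher in each banded library. The ratio of Nmrk2 to Nampt FPKM was 0.0935, 0.0621, 0.0631 and 0.0483 in Sham 1 to 4, against 0.191, 0.143 and 0.236 in TAB 1 to 3. The groups did not overlap, and their means were 0.0668 ± 0.0191 (SD, n = 4) and 0.190 ± 0.0465 (SD, n = 3). Nampt thus remained the more abundant transcript per length in all 7 libraries. Both values were built from the genes described and were not tested.

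**Figure D2:**
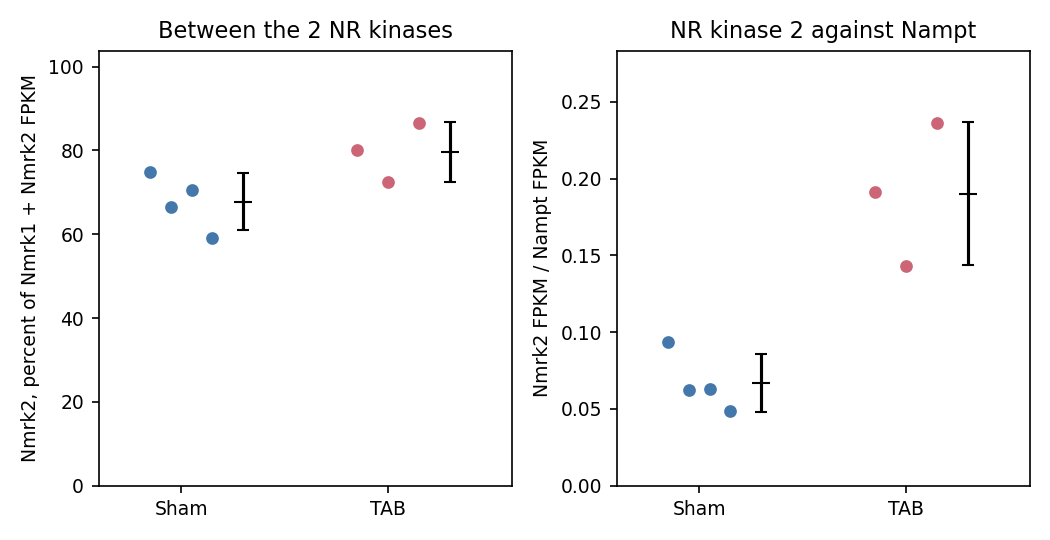
Per library, the share of Nmrk2 in the summed FPKM of both nicotinamide riboside kinases (left, percent) and the ratio of Nmrk2 to Nampt FPKM (right), with group mean and SD in black. The shares overlap at 72.4% in TAB 2 and 74.9% in Sham 1, whereas the lowest TAB ratio (0.143) is above the highest Sham ratio (0.0935).

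The Nmnat genes, whose enzymes complete NAD in the nucleus (Nmnat1) and, by most accounts, in mitochondria (Nmnat3), were not called. Nmnat1, on chromosome 4 (149468787 to 149485142, minus strand), was at 14.7, 18.7, 18.7 and 16.0 FPKM in Sham 1 to 4 and at 16.8, 15.3 and 17.6 in TAB 1 to 3. All TAB values lay inside the Sham range, and the log2 fold change was -0.03 (95% confidence interval -0.23 to 0.16, limma adjusted p = 0.817). Nmnat3, on chromosome 9 (98296583 to 98411428, plus strand), was at 11.0, 11.0, 10.7 and 11.5 FPKM in Sham 1 to 4 and at 9.89, 10.6 and 9.06 in TAB 1 to 3. Its TAB values were all below its Sham values, by little in TAB 2, and its log2 fold change of -0.15 (95% confidence interval -0.29 to -0.01) missed the threshold (adjusted p = 0.125). It passed under quantile normalization and median-of-ratios rescaling, with -0.20 in both (adjusted p = 0.0494 and 0.0444).

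None of the sirtuins was called in either direction by limma. Sirt1, the nuclear deacetylase, lies on chromosome 10 (63319005 to 63339035, minus strand) and was at 4.07, 4.67, 4.96 and 4.33 FPKM in Sham 1 to 4 and at 3.88, 3.74 and 3.69 in TAB 1 to 3. The groups did not overlap, but Sham 1 and TAB 1 were close. The Sham mean was 4.51 ± 0.390 (SD, n = 4) and the TAB mean 3.77 ± 0.0985 (SD, n = 3), with a log2 fold change of -0.20 (95% confidence interval -0.37 to -0.04, limma adjusted p = 0.0795). It was called under median-of-ratios rescaling (-0.25, adjusted p = 0.037) and quantile normalization (-0.28, adjusted p = 0.0238). The antisense gene Gm16145 has exons over Sirt1.

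Sirt3 and Sirt5 act in mitochondria, Sirt3 as the main deacetylase there and Sirt5 as a remover of succinyl and malonyl groups. Sirt3, on chromosome 7 (140863663 to 140882309, minus strand), was at 31.5, 28.9, 30.4 and 31.9 FPKM in Sham 1 to 4 and at 31.5, 29.8 and 28.8 in TAB 1 to 3. Sirt5, on chromosome 13 (43370716 to 43395203, plus strand), was at 29.6, 29.2, 24.8 and 27.4 FPKM in Sham 1 to 4 and at 29.6, 28.7 and 28.1 in TAB 1 to 3. In both genes the groups overlapped almost fully. The log2 fold change of Sirt3 was -0.03 (95% confidence interval -0.15 to 0.09, limma adjusted p = 0.744) and that of Sirt5 0.05 (-0.09 to 0.20, adjusted p = 0.592), so a change of more than 0.20 in either direction lay outside both intervals. Sirt3 shares exonic bases on the opposite strand with Psmd13, a proteasome gene that rose by 0.21 ± 0.04 on the log2 scale (adjusted p = 0.00672), and with Ric8a.

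Over the whole family of 7 sirtuins 0 were called by limma, where 20.3% of all tested rows were. Sirt1 was the 1 sirtuin with an unadjusted limma p under 0.05 (0.0202). By mean Sham FPKM the order was Sirt2 (51.0 ± 2.81), Sirt3 (30.7 ± 1.35), Sirt5 (27.7 ± 2.20), Sirt4 (7.09 ± 0.963), Sirt7 (5.36 ± 0.626), Sirt1 and Sirt6 (3.07 ± 0.177; SD, n = 4 for each). The Sham ranges of Sirt3 and Sirt5, of Sirt4 and Sirt7, and of Sirt7 and Sirt1 overlapped. Those of Sirt2 and Sirt3, Sirt5 and Sirt4, and Sirt1 and Sirt6 did not. The log2 fold changes of Sirt2, Sirt4, Sirt6 and Sirt7 ranged from -0.12 to 0.10.

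Nnt, the mitochondrial transhydrogenase that supplies NADPH for glutathione and thioredoxin, was by far the most abundant of the 10 transcripts and fell. Its row spans 119334317 to 119409138 on chromosome 13 (minus strand). The level was 385.7, 410.7, 405.7 and 416.3 FPKM in Sham 1 to 4 and 310.5, 348.3 and 320.0 FPKM in TAB 1 to 3. Each TAB library was below each Sham library. The mean went from 404.6 ± 13.3 (SD, n = 4) to 326.3 ± 19.6 (SD, n = 3) FPKM, a ratio of 0.806 (log2 fold change -0.31 ± 0.05 SE, limma adjusted p = 0.0017), and the call held under all 18 alternatives with values from -0.37 to -0.28. As background, some C57BL/6 substrains carry a deletion inside Nnt. With no strain in the labels and 1 value per gene, these data do not show whether the transcript was complete.

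Cd38 encodes a cell-surface glycohydrolase of immune and endothelial cells that breaks NAD down, and it rose, with a call that depended on single libraries. On chromosome 5 (43868827 to 43912374, plus strand), it was at 5.41, 4.63, 4.89 and 3.80 FPKM in Sham 1 to 4 and at 6.36, 5.65 and 6.13 in TAB 1 to 3. The groups did not overlap, with Sham 1 nearest to the TAB libraries. The mean went from 4.68 ± 0.672 (SD, n = 4) to 6.04 ± 0.365 (SD, n = 3) FPKM, or 1.29-fold (log2 fold change 0.32 ± 0.10 SE, limma adjusted p = 0.0389). That call was lost without Sham 2, Sham 3, Sham 4, TAB 1 or TAB 3 (adjusted p = 0.0737, 0.0548, 0.0665, 0.128 and 0.0989), under both scalings (0.0719 and 0.0866), with no filter (0.0768) and under eBayes without trend and robust (0.0514). Markers of cells known to carry Cd38 were called in part. Of 10 endothelial markers 5 were higher in TAB and 0 lower, with a summed level of 252.8 to 285.4 FPKM in Sham and 299.2 to 334.5 in TAB, beside 13.3% of all rows called higher, and the uncalled Kdr and Vwf had log2 fold changes of -0.18 and -0.14. Of 10 tested macrophage markers (12 listed) 3 were higher and 0 lower, with a sum of 213.7 to 239.7 FPKM in Sham and 237.5 to 300.4 in TAB. The sum in TAB 2 lay inside the Sham range. None of the 8 lymphocyte markers reached the filter, and their sum was 0.716 to 3.21 FPKM in Sham and 1.54 to 2.34 in TAB. Without TAB 1 the endothelial calls were 2 higher and 1 lower and 1 macrophage marker was called, and without TAB 2 6 macrophage markers were. No marker of these 3 lists was at 0 in every library. The part of these cells in the rise of Cd38 was not tested.

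**Figure D3:**
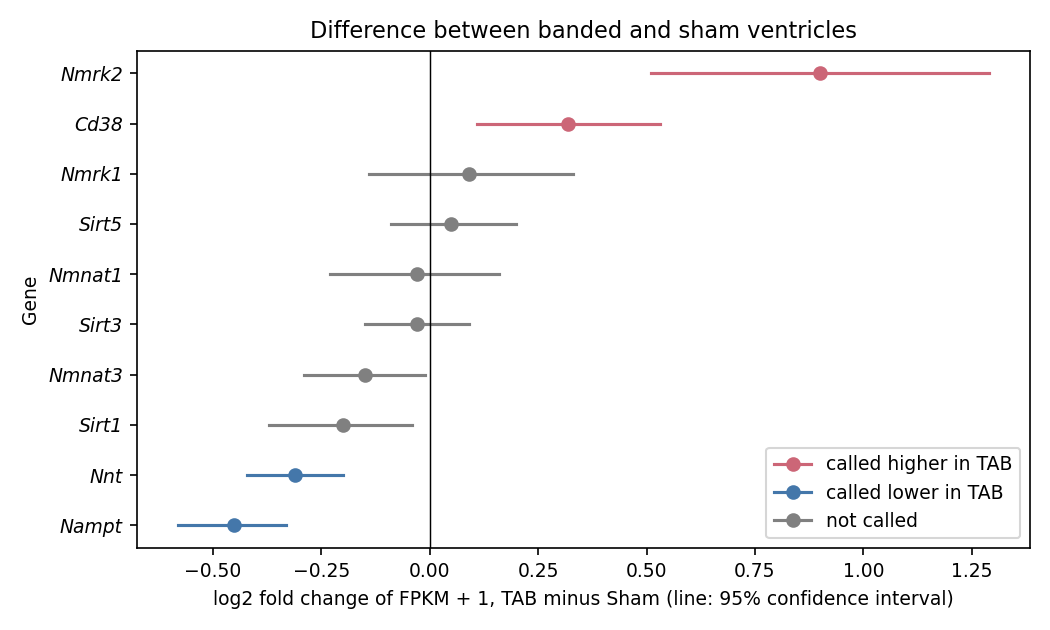
Log2 fold change of FPKM + 1 (horizontal axis, TAB minus Sham) of the 10 genes with its 95% confidence interval from limma, red where called higher, blue where called lower and grey where not called. Nmrk2 stands at 0.90 and Cd38 at 0.32, Nampt at -0.45 and Nnt at -0.31, and the intervals of Nmnat3 and Sirt1 exclude 0 although neither was called after adjustment.

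In order of mean Sham FPKM the 10 genes ran from Nnt through Nampt, Sirt3, Sirt5, Nmnat1, Nmnat3, Cd38, Sirt1 and Nmrk2 to Nmrk1. The Sham ranges of Sirt3 and Sirt5, of Cd38 and Sirt1, and of Sirt1 and Nmrk2 overlapped, and the other neighbours were apart. In TAB Nmrk2, with a mean of 8.81 FPKM, stood above Cd38 (6.04) and Sirt1 (3.77). By mean level over all libraries Nnt was above 98.0% of the tested rows, Nampt above 90.0%, Nmrk2 above 41.8% and Nmrk1 above 13.5%.

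Other genes of NAD synthesis, transport and clearance were called in both directions. Of 25 listed genes 14 reached the filter, of which 2 were higher, 3 lower and 9 not called, with a median log2 fold change of 0.04, where 13.3% of all rows were called higher and 7.05% lower. Nadk2, the mitochondrial NAD kinase that makes NADP (listed under an older symbol), was at 25.1 to 29.1 FPKM in Sham and 15.5 to 17.5 in TAB, a fall of the mean from 27.2 ± 1.72 (SD, n = 4) to 16.6 ± 1.04 (SD, n = 3) FPKM (log2 fold change -0.68 ± 0.06 SE, limma adjusted p = 0.000147). Nadk, the cytosolic kinase, was not called (0.12, 95% confidence interval -0.02 to 0.27). Nnmt, which methylates nicotinamide and so removes it from salvage, rose from 1.87 ± 0.300 (SD, n = 4) to 3.36 ± 0.586 (SD, n = 3) FPKM (0.60 ± 0.11 SE, limma adjusted p = 0.00433). Aox1, an oxidase that acts on the methylated product, fell by 0.45 ± 0.10 (adjusted p = 0.011), and Afmid, a formamidase of the route from tryptophan, by 0.40 ± 0.09 (adjusted p = 0.00906). The Nudix hydrolase gene Nudt13 rose by 0.31 ± 0.08 (adjusted p = 0.0185). Without Sham 2 and TAB 3 the calls of Aox1, Afmid and Nudt13 were lost (2 of 14 called), as was that of Nudt13 without TAB 3 (highest adjusted p = 0.0913). The mitochondrial NAD carrier gene Slc25a51 was at 18.7 ± 0.279 FPKM in Sham (SD, n = 4) and 18.8 ± 0.478 FPKM in TAB (SD, n = 3).

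The enzymes of the route from tryptophan were mostly near the floor of detection. Qprt, which enters the ring into the NAD pathway, was listed at 0 in Sham 1 to 3 and TAB 1 and at 0.0747 to 0.0768 FPKM in the others. Haao, Kynu, Kmo, Tdo2, Ido1, Ido2 and Acmsd stayed at or below 0.396 FPKM in every library and were not tested. Naprt and Nadsyn1, which serve the route from nicotinic acid, were at 5.23 ± 0.665 and 1.69 ± 0.324 FPKM in Sham (SD, n = 4) and at 5.51 ± 1.14 and 1.71 ± 0.205 FPKM in TAB (SD, n = 3), and were not called.

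Among the other genes listed as consumers of NAD, whose enzyme activity was not measured, 23 of 25 were tested. Of these 2 were higher, 4 lower and 17 not called (median log2 fold change 0.06). Over all rows 13.3% were called higher, 7.05% lower and 20.3% in either direction. The ADP-ribosyltransferase genes Art4, Art3 and Art5 fell, by 0.41 ± 0.06 (limma adjusted p = 0.00125), 0.28 ± 0.07 (0.0187) and 0.36 ± 0.10 (0.0254). Art1, the other listed gene of that family, was not called (log2 fold change -0.07, limma adjusted p = 0.583). Its level was 130.3 ± 12.6 FPKM in Sham (SD, n = 4) and 124.1 ± 8.75 FPKM in TAB (SD, n = 3). Art3, an abundant surface protein of striated muscle, was at 194.8 to 225.6 FPKM in Sham and 162.8 to 194.0 FPKM in TAB. Parp1, the DNA-damage polymerase that is a major user of nuclear NAD, fell from 17.9 ± 0.777 (SD, n = 4) to 14.9 ± 0.610 (SD, n = 3) FPKM (-0.24 ± 0.06 SE, limma adjusted p = 0.0126). Parp6 rose by 0.33 ± 0.06 (adjusted p = 0.00458) and Parp9, an interferon-induced member, by 0.36 ± 0.08 (adjusted p = 0.0119). Art1, Art3 and Art5 were named after their values were seen. Parp1 lost its call without TAB 3, Parp9 without TAB 1, Art3 without TAB 1 or TAB 2, and Art5 without Sham 2, Sham 3, Sham 4, TAB 1 or TAB 3 or with no filter (adjusted p up to 0.174). Without both Sham 2 and TAB 3 Parp1, Parp9 and Art5 lost theirs, and 3 consumers were called without TAB 1. Sarm1 and Bst1, other NAD-cleaving enzymes, stayed at or below 0.465 FPKM in every library.

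Beside Nnt, 13 other genes were listed as sources of NADPH, and whether their enzymes made NADPH or NADH was not measured. Of these 3 were lower, 1 higher and 9 uncalled (median log2 fold change -0.02), where 7.05% of all rows were called lower and 13.3% higher. Aldh1l2, the mitochondrial formyltetrahydrofolate dehydrogenase, fell from 3.84 ± 0.538 (SD, n = 4) to 1.66 ± 0.0607 (SD, n = 3) FPKM (-0.86 ± 0.09 SE, limma adjusted p = 0.000276). Mthfd2, another mitochondrial enzyme of the folate cycle, rose from 1.35 ± 0.176 to 2.25 ± 0.334 FPKM (0.46 ± 0.10 SE, adjusted p = 0.00871). The mitochondrial malic enzyme gene Me3 fell by 0.28 ± 0.06 (adjusted p = 0.00679), and Glud1, glutamate dehydrogenase, by 0.14 ± 0.04 (adjusted p = 0.0382), a call lost without any single library (adjusted p up to 0.185). The isocitrate dehydrogenase gene Idh2 was at 1410.8 to 1511.0 FPKM in Sham and 1261.5 to 1459.8 FPKM in TAB and was not called (adjusted p = 0.261). Without Sham 2 and TAB 3 Aldh1l2 alone was called, and Me3 and Mthfd2 had adjusted p of 0.0605 and 0.0709.

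The shuttles that carry electrons of cytosolic NADH into mitochondria were lower in 5 of 10 and higher in 0, with a median log2 fold change of -0.13, where 7.05% of all rows were called lower. Cardiomyocyte markers were lower in 5 of 10 and higher in 2, as given above, by amounts of like size, and their part in the shuttle result was not tested. Got1, the cytosolic aspartate aminotransferase, fell from 541.9 ± 28.8 (SD, n = 4) to 435.3 ± 9.55 (SD, n = 3) FPKM (-0.31 ± 0.05 SE, limma adjusted p = 0.00129). Slc25a12, the aspartate-glutamate carrier of muscle, fell by 0.21 ± 0.04 (adjusted p = 0.0033). Mdh1, Got2 and Gpd2 fell by 0.14 ± 0.04, 0.16 ± 0.05 and 0.28 ± 0.08 (adjusted p = 0.019, 0.0348 and 0.0351). The calls of Mdh1, Got2 and Gpd2 were lost without TAB 1 or TAB 3 and without some Sham libraries (adjusted p up to 0.131, 0.136 and 0.134), and 2 to 5 genes were called when 1 library was left out.

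**Figure D4:**
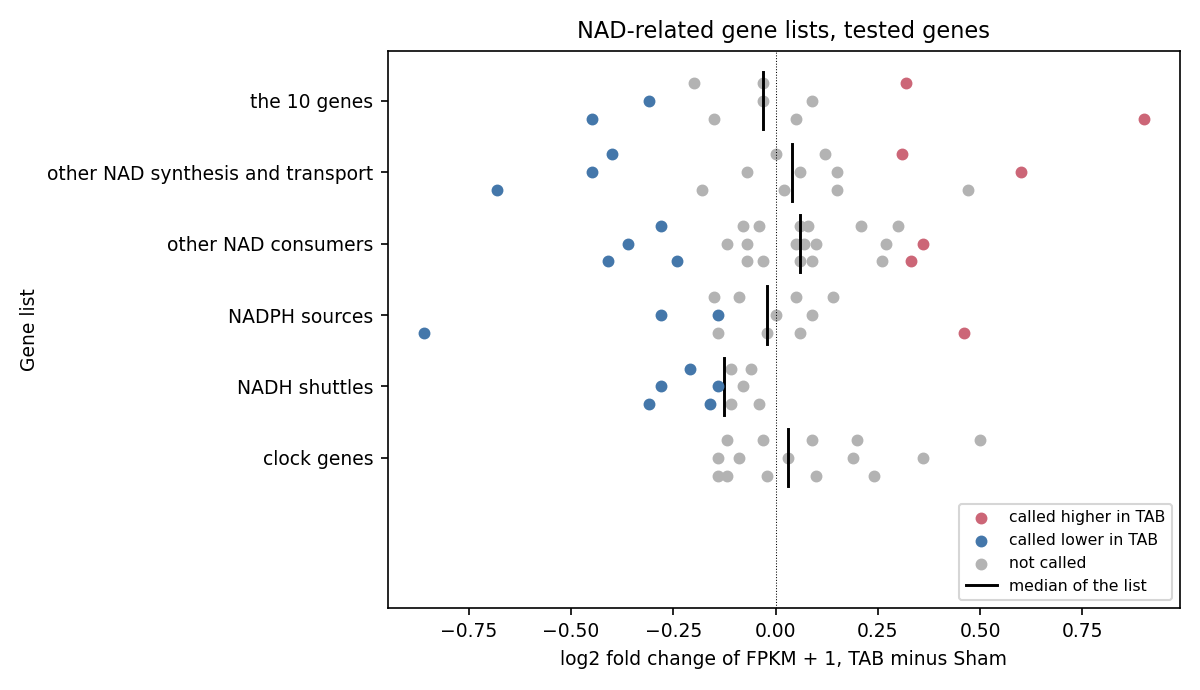
Log2 fold change of FPKM + 1 (horizontal axis, TAB minus Sham) of each tested gene in the NAD-related lists, red where called higher, blue where called lower and grey where not called, with the list median as a black line and a small vertical offset for visibility. In the NADH shuttle list 5 of 10 genes are called lower, and in the clock list 0 of 15 are called. Over all tested rows 7.05% were called lower and 20.3% in either direction.

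**Figure D5:**
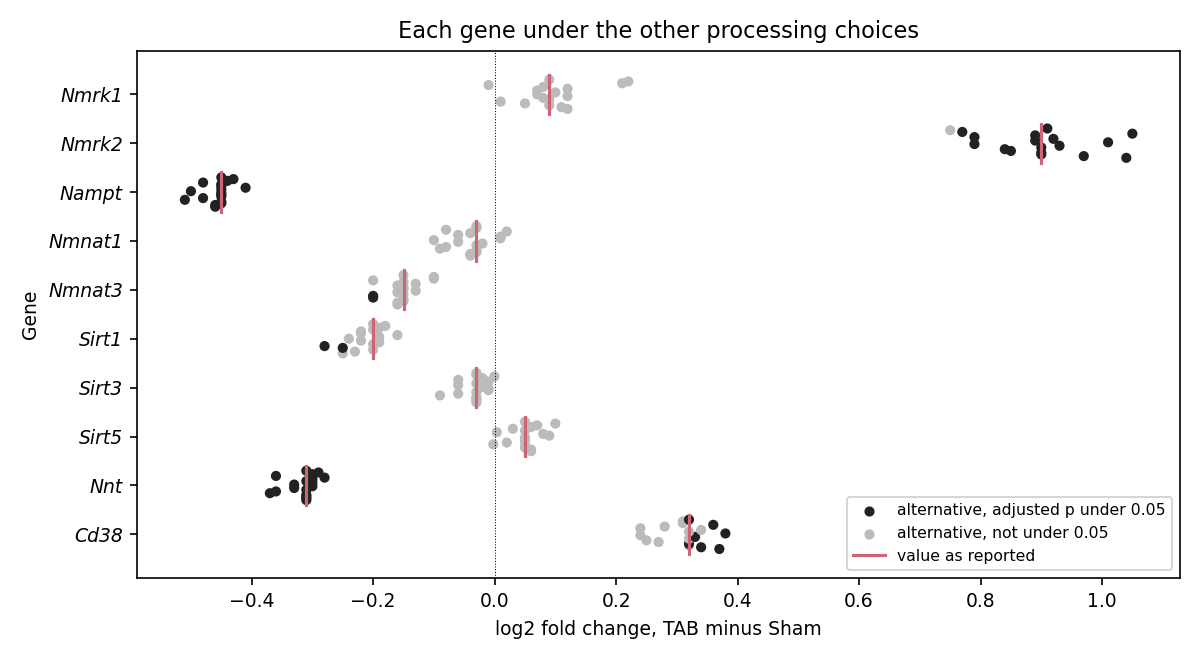
Log2 fold change of each of the 10 genes (horizontal axis, TAB minus Sham) under up to 18 alternative settings, black where the adjusted p was under 0.05 and grey where it was not, with the reported value as a red line and a small vertical offset for visibility. All points of Nampt and Nnt are black, those of Nmrk2 are black but for the one at 0.75, and those of Cd38 are mixed.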

How the data were processed

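RNA was measured in 7 ventricular libraries, made from poly(A) RNA with a stranded method per the labels' protocols. What the authors deposited is FPKM per gene and library, on mm10. Per the submitters' processing notes TopHat and Cufflinks were used, with no version and no word on the use of strand. FPKM summed to 510016 to 535455 per library, so the values are scaled by library and a change in a few abundant genes moves the others. FPKM values are not counts, so no count test was run. Depth (10.8 to 12.3 M fragments) was estimated from low values of genes with a single transcript in GENCODE M21, of which 66.8% to 68.5% came within 0.1 fragment of a whole number. Fragment numbers per gene are therefore approximate.

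The 4 Sham and 3 TAB libraries were compared on log2(FPKM + 1) with limma 3.58.1 (R 4.3.3; lmFit and eBayes with trend and robust), two-sided, over the 11601 rows with FPKM of at least 1 in at least 3 libraries, with Benjamini-Hochberg adjustment over all of them and a threshold of 0.05. The fold change understates changes of low genes. On simulated data with 50 changed genes per size among 11601, 46% were recovered at 1.25-fold, 94% at 1.5-fold, 96% at 2-fold and 100% at 3-fold of FPKM + 1. Far fewer genes changed in the simulation than the 2360 rows called in the data, and the adjustment is stricter where fewer genes change. These percentages therefore do not give the recovery of the reported fit. Small shifts of genes not called may have been missed.

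The 10 genes and the lists were chosen with earlier results of these data known. All 10 genes were named, and from each other list all called genes where 5 or fewer passed, otherwise the 4 of smallest adjusted p. For the called gene with the largest rise and that with the largest fall, the 3 rows of mean FPKM of at least 5 with the highest Pearson r were named. Alternatives were other pseudocounts, filters, scalings, variance models, library weights, an atrial covariate, a replicate block and leaving out libraries.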

Additional observations from a re-analysis of the deposited data

How the results depend on the processing

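Of 178 values of the 10 genes under the 18 alternatives, 157 kept direction and side of the threshold, 12 lost a call, 4 gained one and 5 changed sign. The sign changes were all in genes not called: Nmrk1 without TAB 2 (-0.01), Nmnat1 without Sham 2 (0.0096), Sham 3 (0.00993) or TAB 2 (0.02), and Sirt5 under median-of-ratios rescaling (-0.00224). Without both Sham 2 and TAB 3, 1353 rows were called, and the counts were 2 for the 10 genes, 2 for synthesis and transport, 3 for consumers, 1 for NADPH sources, 2 for NADH shuttles and 1 for clock genes. With a filter at mean FPKM 5, which tests fewer genes, 3 of synthesis and transport and 2 of the NADPH sources were called. The shuttles gave 3 calls with no filter and 3 under eBayes without trend and robust, and the clock genes 1 under median-of-ratios rescaling. The causes of the other shifts were not tested. Leaving out 1 library gave 1440 (without TAB 1) to 2080 calls over all rows, 3 to 4 for the 10 genes, 4 to 6 for synthesis and transport, 3 (without TAB 1) to 7 for consumers, 3 for NADPH sources, 2 to 5 for shuttles and 0 to 1 for clock genes. For the shuttles, 2 calls came without TAB 1 or TAB 3 and 3 without Sham 2, Sham 3 or Sham 4, and the 1 clock call came without TAB 3. The share of Nmrk2 in both kinases differed by 8.39 to 15.4 percentage points and its ratio to Nampt by 0.1 to 0.147. Over the same leave-one-out fits Nmrk1 ran from -0.01 to 0.21 and Nmnat1 from -0.1 to 0.02.

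Replicate numbers are shared by the groups, and the labels do not say that they pair libraries. The deviations of same-numbered libraries correlated at 0.081, 0.169 and 0.174. TAB 2 and TAB 3 correlated best with the Sham library of the same number, and TAB 1 with Sham 3 (0.104). Correlations between libraries of different number ran from -0.245 to 0.104. These small values do not settle pairing, so the main fit took no pairs and a replicate block was an alternative. With a replicate block 1892 rows were called, 3 of the 10 genes (Cd38 with adjusted p = 0.068), 5 genes of synthesis and transport, 6 consumers (4 higher and 2 lower, against 2 and 4 without the block, with Parp1 and Art3 no longer called), 3 NADPH sources, 4 shuttle genes and 1 clock gene. At 10.8 to 12.3 M fragments, Nmrk1 and the tryptophan-route genes rest on few fragments, which limits what can be seen for them.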

Other observations

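Clock genes, some of which are known in the mouse to drive Nampt through E-boxes, were not called. Of 16 listed genes 15 were tested and 0 were called by limma, where 20.3% of all tested rows were. An unadjusted limma p under 0.05 was found for 3 (Per2, Nr1d2 and Bhlhe41), and the list median was 0.03. The Sham mean of Clock was 8.19 ± 1.10 FPKM (SD, n = 4) and its TAB mean 7.99 ± 0.868 FPKM (SD, n = 3), with Per2 at 5.93 ± 0.662 and 6.89 ± 0.294. Single genes were named here after their values were seen.

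Over the 7 libraries, the rows with the profile most like Nmrk2 were Gprc5b, Ctsl and Map4k4 (Pearson r of log2(FPKM + 1) 0.989, 0.982 and 0.981), and those most like Nampt were Fam174b, Ephx2 and Me3 (0.995, 0.992 and 0.991), among 7192 rows. These values share the difference between the groups and are a description. Me3 is also a source of NADPH.

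Among the TAB libraries Nmrk2 was highest in TAB 3 and lowest in TAB 2. Nppb, a natriuretic peptide gene of loaded myocardium, was at 568.8, 391.4 and 774.9 FPKM in TAB 1 to 3, and Myh7, the slow myosin heavy chain, at 277.2, 238.8 and 540.9. Both had the same order as Nmrk2, as did the summed atrial markers (73.7, 31.9 and 301.8 FPKM). In Sham the atrial sum was highest in Sham 2 and Nmrk2 in Sham 1, and both were lowest in Sham 4. Myh7 was at 62.2, 67.5, 63.1 and 80.9 FPKM in Sham 1 to 4, the reverse of the order of Nmrk2 there. Nppb was at 171.3, 136.6, 82.1 and 134.8 FPKM, highest in Sham 1 and lowest in Sham 3. Nmrk2 was not called without Sham 2 and TAB 3, where calls over all rows went from 2360 to 1353. With an atrial covariate Nmrk2 was called (limma adjusted p = 0.00544). Acta1, skeletal actin, was at 2951.1, 2110.2 and 2474.1 and was highest in TAB 1. These orders, over 3 TAB and 4 Sham libraries, are a description without a test.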
